A study of Mus musculus with 31 samples.

Results

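Metabotropic glutamate receptors and the Homer scaffolds that bind them were read in single olivocochlear neurons of the mouse brainstem. The 9 genes are the receptors Grm2, Grm3, Grm4, Grm5, Grm7 and Grm8 and the scaffolds Homer1, Homer2 and Homer3. They were taken by gene name from the authors' normalized table and matched by Ensembl identifier to the count table, where they are 9 of 55421 mouse genes. All 9 had reads in both kinds of neuron.

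Lateral olivocochlear (LOC) neurons, 18 in all, came from the lateral superior olive, and 13 medial olivocochlear (MOC) neurons came from the ventral nucleus of the trapezoid body. Both kinds were picked by red fluorescence in slices of ChAT-IRES-Cre; tdTomato mice, recorded by patch clamp, and emptied by aspiration for a Smart-seq2 library of each cell (Patch-seq). Cre in these mice follows the choline acetyltransferase gene, so the mark is for cells that use, or once used, this gene, and the genotype field of every cell reads wild-type. No treatment or age separates the groups in the labels, and no label ties a cell to an animal, so LOC and MOC are each treated as 1 sample. No test between them was made, and every SD below is the spread between cells. An aspirated cell can hold less of a transcript because less cytoplasm was taken, which these counts cannot tell apart from a lower level in the cell.

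Metabotropic glutamate receptors signal through G proteins. Group I receptors, of which Grm5 is the member here, couple to Gq, phospholipase C and calcium release, mostly behind the synapse. Group II (Grm2, Grm3) and group III (Grm4, Grm7, Grm8) couple to Gi/o proteins, lower cyclic AMP, and often sit on terminals where they reduce release. Long Homer proteins bind group I receptors through an EVH1 domain and tie them to inositol trisphosphate receptors and Shank proteins. Olivocochlear neurons are cholinergic efferents that project from the brainstem to the cochlea and receive glutamatergic input from the cochlear nucleus.

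The contact between receptor and scaffold can be read in the coding sequence. Homer EVH1 domains bind a short motif, proline, proline, any residue, any residue, phenylalanine. In the GENCODE M21 transcript of Grm5 the motif starts at codon 1124 of 1171. It is shown because it is the Homer ligand of this receptor, with the 5 motif codons in capitals and 24 bases on each side. The whole printed stretch lies on the plus strand of GRCm38 at chr7:88130699-88130761.
Grm5 ligand: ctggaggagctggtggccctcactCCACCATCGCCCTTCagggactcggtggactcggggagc
On the scaffold side, the same 90-base stretch near the start of the EVH1 coding part is shown for the 3 Homer genes, with bases identical in all 3 in capitals. It lies at chr13:93341763-93341852 (plus strand) for Homer1, chr7:81649614-81649703 (minus strand) for Homer2 and chr8:70285401-70285490 (plus strand) for Homer3.
Homer1: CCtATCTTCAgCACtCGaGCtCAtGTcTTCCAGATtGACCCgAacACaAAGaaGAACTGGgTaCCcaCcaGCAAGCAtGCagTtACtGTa
Homer2: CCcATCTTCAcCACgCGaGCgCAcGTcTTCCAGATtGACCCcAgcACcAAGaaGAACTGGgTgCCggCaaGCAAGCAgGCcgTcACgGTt
Homer3: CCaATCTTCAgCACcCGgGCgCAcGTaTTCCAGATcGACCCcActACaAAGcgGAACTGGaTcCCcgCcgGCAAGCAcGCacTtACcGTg
In that stretch 64 of 90 bases are identical in all 3. The stretch starts at coding base 13 in Homer1 and Homer2 and at coding base 22 in Homer3. With that shift kept, the first 330 coding bases of Homer1 and Homer2 were compared with 330 bases of Homer3. Homer1 and Homer2 are 75.2% identical there, Homer1 and Homer3 73.0%, and Homer2 and Homer3 77.0%. The longest run of identical bases between the transcripts of any 2 of the 9 genes is 36, in 36 pairs compared, which is shorter than the 75-base reads. An in-frame search for the motif found it in 1461 of 21526 coding genes (6.79%), among them Grm2 at codon 186 and Grm7 at codon 200. Both of those codons lie far from the carboxyl end, and a match of letters is not a binding site. Of the 19 Homer partners taken up below, 7 held the motif in the transcript searched, Dnm3 among them. The other 12 did not, Agap2 and the Dlg and Dlgap genes among them.

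Libraries held 356412 to 1404896 counts (median 768815) in LOC neurons and 598028 to 2627174 counts (median 906622) in MOC neurons. A level that 3 counts would give, the floor used here, was 2.14 to 8.42 CPM (the counts of a gene scaled to a library total of 1000000) in an LOC library and 1.14 to 5.02 CPM in a MOC library. The defining transcripts of the labelled cell type, Chat, Slc18a3 and Slc5a7, summed to a median of 415.8 CPM (0 to 1742) in LOC neurons and 10.97 CPM (0 to 1667) in MOC neurons. Reads of tdTomato, the red label itself, were found in 11 of 18 LOC and 9 of 13 MOC cells. Fewer than 10 cholinergic reads were found in LOC cells 7, 9, 14 and 16 and in MOC cells 4, 8, 9, 12 and 13, and none at all in LOC 14, LOC 16 and MOC 8. LOC 14 and MOC 2 and 13 stood apart by excitatory-neuron markers (Slc17a6, Slc17a7), at 709.7, 731.9 and 413.0 CPM against group medians of 70.1 CPM in LOC and 86.8 CPM in MOC neurons. MOC 8 and 9 were highest in inhibitory markers, at 2992 and 2651 CPM. Glial transcripts were in every library: 12 astrocyte markers summed to 709.7 to 9025 CPM in LOC and 615.4 to 8600 CPM in MOC neurons, and 10 oligodendrocyte markers to 22.7 to 238537 CPM in LOC and 362.7 to 123302 CPM in MOC neurons. Microglia markers had medians of 215.2 CPM in LOC and 695.6 CPM in MOC neurons. Values of the 9 genes below are therefore given for all 31 libraries and for the 14 LOC and 8 MOC libraries with at least 10 cholinergic reads. That cutoff counts reads, so library depth enters it. MOC 7 (10.66 CPM of cholinergic markers) and MOC 11 (10.61 CPM) were kept, while MOC 12 (10.97 CPM) and LOC 7 (14.03 CPM) were not. The kept libraries also include MOC 2, high in excitatory markers, and LOC 17, highest in oligodendrocyte markers.

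Grm5 was the receptor with the widest difference of mean log2(CPM + 1) over all libraries. By medians over cells Grm3 was wider (-2.74 in LOC minus MOC, against 1.95 for Grm5), and by summed CPM Grm2 was wider (5.63-fold, against 5.10-fold). A size rule took the place of a test. It asked for a 2-fold or wider gap in summed CPM (all counts of a group over all its totals), for a gap of 1 or more between means of log2(CPM + 1), and for reads in 25% or more of the cells on the higher side. Of the 9 genes, 1 met the rule toward LOC (Grm5) and 0 toward MOC, where 6.07% and 5.67% of all 17754 measured genes did (4.07% and 6.28% with DESeq2 size factors). Measured genes are those read in 25% or more of the cells of LOC or of MOC neurons, and all 9 were. Among measured genes at least as abundant as the lowest of the 9, the shares were 9.03% toward LOC and 8.11% toward MOC. The counts for the 9 genes do not stand apart from that background. Mean log2(CPM + 1) was higher in LOC for 6 of the 9 genes and lower for 3, with a median LOC minus MOC difference of 0.47, beside -0.07 for all measured genes.

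**Figure D1:**
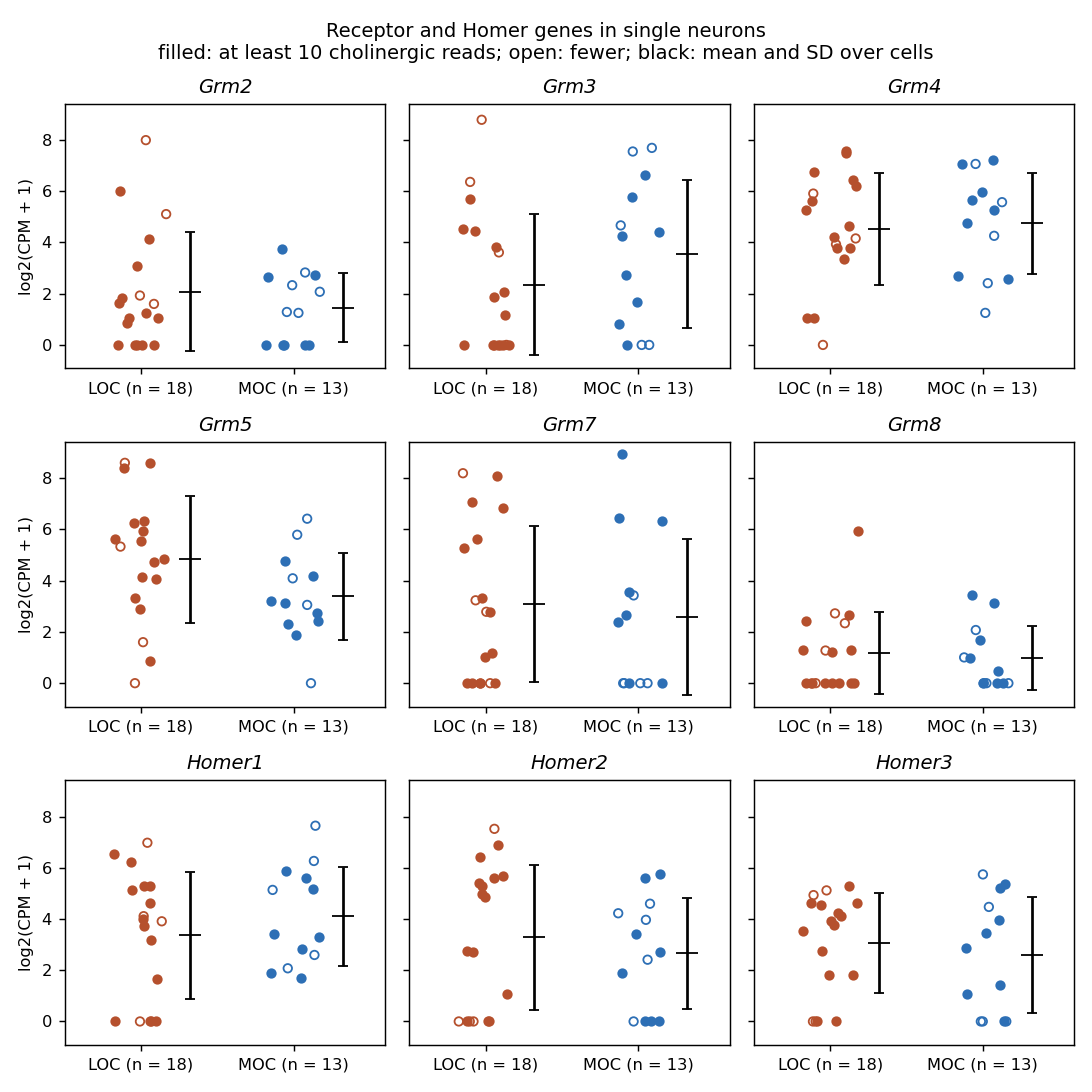
Each panel plots log2(CPM + 1) of a gene for every neuron, LOC (n = 18) left of MOC (n = 13), with black bars for the mean and SD over cells and filled points for libraries with at least 10 cholinergic reads. Grm5 had means of 4.84 in LOC and 3.39 in MOC, with 3 LOC cells above the highest MOC cell, and cells of each kind overlapped for every gene.

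Grm5 encodes mGlu5, the Gq-coupled receptor whose tail carries the Homer ligand shown above. The gene lies on the plus strand of chromosome 7 at 87584168 to 88134907 (GRCm38). Its level ranged from 0 to 387.5 CPM in LOC neurons (median 33.5) and from 0 to 84.7 CPM in MOC neurons (median 7.81). The groups overlapped: 3 of 18 LOC cells (14, 1 and 5) lay above the highest MOC cell, and each group had 1 cell with no read. Most LOC neurons had moderate Grm5, while most MOC neurons had little. At least 5 reads were found in 15 of 18 LOC cells and 9 of 13 MOC cells. Summed CPM was 99.9 in LOC (95% Poisson interval 94.8 to 105) and 19.6 in MOC neurons (17.3 to 22.1), a ratio of 5.10. Such intervals cover counting error only, not the spread between cells. LOC cells averaged 4.84 ± 2.48 on the log2(CPM + 1) scale and MOC cells 3.39 ± 1.69 (SD over cells), a difference of 1.45 that is smaller than the SD in either group.

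A few cells carried much of that sum. LOC cells 5, 1 and 14 held 76.1% of the LOC counts of Grm5, and the other LOC cells summed to 30.2 CPM. Without the 3 highest MOC cells (9, 8 and 3), MOC neurons summed to 6.99 CPM. MOC 8 and 9, the pair with the most inhibitory marker reads and with under 10 cholinergic reads, were thus the cells with the most Grm5 in their group. With at least 10 cholinergic reads, Grm5 ranged from 0.80 to 385.0 CPM in LOC neurons (median 36.8) and from 2.68 to 26.4 CPM in MOC neurons (median 6.76). There 8 of 14 LOC cells lay above the highest of 8 MOC cells. The sums were 93.1 CPM in LOC and 9.72 CPM in MOC neurons, and the difference of means was 2.03, wider than with all libraries. Without LOC 14 the LOC sum was 84.9 CPM and the difference 1.23, still past the rule, as were 6.02% of measured genes. Without LOC 14, MOC 2 and MOC 13, the libraries highest in excitatory markers (a choice made after seeing the data), the difference was 0.90 and Grm5 no longer met the rule. The difference for Grm3 was then the wider, at -1.37, and 0 of the 9 genes met it toward LOC (6.96% of measured genes) and 1, Grm3, toward MOC (6.33%). The part that other neurons' RNA plays in the level of Grm5 was not tested. Across the 31 cells the Spearman correlation of Grm5 with summed astrocyte markers was -0.35, a description only, as cells differ in depth and in how much was aspirated.

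The group II receptors were led by Grm3. Grm3 encodes mGlu3, found in neurons and in astrocytes, and lies on the minus strand of chromosome 5 at 9485541 to 9725170. It ranged from 0 to 441.4 CPM in LOC neurons (median 1.94) and from 0 to 205.8 CPM in MOC neurons (median 18.04). LOC 14 alone lay above every MOC cell, 8 of 18 LOC cells and 3 of 13 MOC cells had no read, and the bulk of LOC cells sat below the MOC median. The sums were 30.9 CPM (28.0 to 33.9) in LOC and 39.7 CPM (36.5 to 43.2) in MOC neurons. Means of log2(CPM + 1) were 2.35 ± 2.74 in LOC and 3.56 ± 2.88 in MOC neurons, a difference of -1.20, and the rule was not met because the sums were close.

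LOC 14 held 70.7% of all LOC counts of Grm3. Without it the sums were 9.52 CPM in LOC and 39.7 CPM in MOC neurons, the difference was -1.58, and Grm3 met the rule toward MOC, as did 6.01% of all measured genes. In libraries with at least 10 cholinergic reads the sums were 6.97 CPM in LOC and 21.4 CPM in MOC neurons. Grm3 again met the rule toward MOC there, with a difference of -1.60, where 7.74% of measured genes did. In those libraries the highest LOC cell had 51.5 CPM and 2 of 8 MOC cells lay above it. All 12 astrocyte markers were read in both groups, none of them at 0, and the part of astrocyte RNA in the Grm3 level was not tested. The correlation of Grm3 with summed astrocyte markers was 0.06 over 31 cells, -0.14 over LOC cells and 0.27 over MOC cells. LOC 14, highest in Grm3, was lowest of the LOC cells in astrocyte markers, at 709.7 CPM. MOC 13, highest of its group in Grm3, had 1448 CPM of them against a MOC median of 3898 CPM. The cells next highest in Grm3 went the other way. LOC 9 (81.3 CPM of Grm3) had 7794 CPM of astrocyte markers against a LOC median of 3512 CPM. MOC 9 (186.5 CPM of Grm3) had 4747 CPM of them.

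Grm2 encodes mGlu2, best known as an autoreceptor on glutamatergic terminals. It lies on the minus strand of chromosome 9 at 106643095 to 106656082. It was low in most cells, from 0 to 254.1 CPM in LOC neurons (median 1.69) and from 0 to 12.3 CPM in MOC neurons (median 1.44). Of the LOC cells, 4 lay above the highest MOC cell, and 5 cells of each group had no read. The sums of 18.6 CPM (16.4 to 20.96) in LOC and 3.30 CPM (2.41 to 4.42) in MOC neurons differed 5.63-fold, but LOC 14 held 67.5% of the LOC counts. Without LOC 14 the LOC sum was 6.35 CPM and the difference of means was 0.28, against 0.63 with it. Grm2 was read in all 9 libraries with under 10 cholinergic reads, and in 9 of 14 LOC and 3 of 8 MOC libraries with at least 10. Its correlation with summed cholinergic markers was -0.56 over 31 cells, the most negative of the 9 genes with that list, and with excitatory markers it was 0.46.

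**Figure D2:**
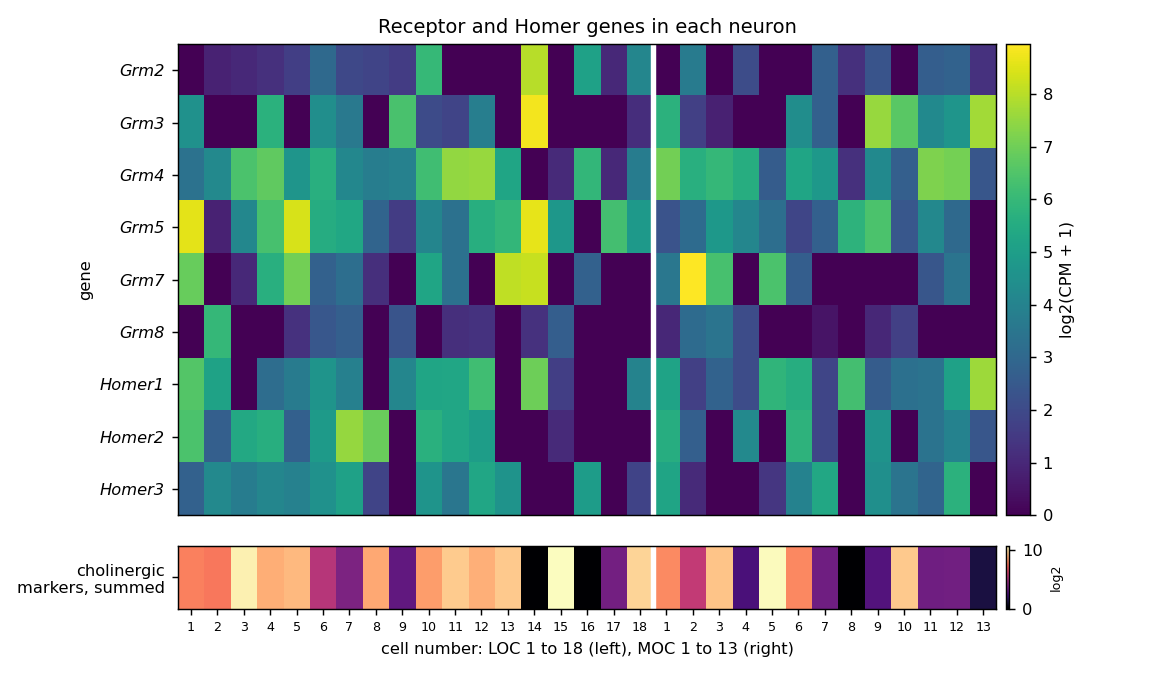
Colour gives log2(CPM + 1) of each gene (rows) in each neuron (columns, LOC 1 to 18 left of MOC 1 to 13), and the lower strip gives log2(CPM + 1) of the summed cholinergic markers. LOC 14, with 0 cholinergic reads, was the highest LOC library for Grm2, Grm3, Grm5, Grm7 and Homer1 and had no read of Grm4, Homer2 or Homer3.

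Grm4 was the receptor read in the most cells. It encodes mGlu4, a presynaptic group III receptor, on the minus strand of chromosome 17 at 27422387 to 27521403. Its level ran from 0 to 190.3 CPM in LOC neurons (median 20.9) and from 1.38 to 147.5 CPM in MOC neurons (median 37.5). The ranges overlapped almost fully, with 2 LOC cells above the highest MOC cell. Reads were found in 17 of 18 LOC cells and in 13 of 13 MOC cells, the exception being LOC 14. Sums were 46.6 CPM (43.2 to 50.3) in LOC and 48.7 CPM (45.1 to 52.5) in MOC neurons. The difference of means, -0.24, took the other sign without LOC 14, at 0.03. In libraries with at least 10 cholinergic reads it was -0.35, with Grm4 read in every one of them.

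Grm7, which encodes mGlu7, a low-affinity receptor of the presynaptic active zone, was patchy. The gene is on the plus strand of chromosome 6 at 110645581 to 111567230. It ranged from 0 to 292.4 CPM in LOC neurons (median 5.91) and from 0 to 493.1 CPM in MOC neurons (median 4.25), with no read in 6 cells of each group. Only MOC 2 lay above the highest LOC cell. Few cells carried most of its reads. The sums were 54.6 CPM (50.8 to 58.5) in LOC and 45.9 CPM (42.4 to 49.6) in MOC neurons, and MOC 2 held 70.6% of the MOC counts. Without MOC 2 the MOC sum was 14.4 CPM, and Grm7 met the rule toward LOC with a difference of 1.01, where 6.5% of measured genes did. With at least 10 cholinergic reads the difference had the other sign, -0.85. The direction for Grm7 therefore rested on which libraries were kept.

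Grm8 was the least abundant of the 9, also per exon length. It encodes mGlu8, a presynaptic group III receptor, and lies on the same chromosome, on the minus strand at 27275119 to 28135178. Levels spanned 0 to 60.7 CPM in LOC neurons (median 0.65) and 0 to 9.80 CPM in MOC neurons (median 0.38). Reads were found in 9 of 18 LOC cells and 7 of 13 MOC cells, mostly at levels near or under the floor of 3 counts. LOC 2 was the highest and held 81.7% of the LOC counts. The LOC sum was 6.52 CPM (5.26 to 7.99) with LOC 2 and 1.31 CPM without it, and the MOC sum was 1.98 CPM (1.30 to 2.88). The difference of means was 0.19 with LOC 2 and -0.09 without it. In libraries with at least 10 cholinergic reads it was -0.15, with sums of 7.21 CPM over LOC cells and 2.65 CPM over MOC cells.

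The scaffolds overlapped between the groups as well. Homer1 encodes the scaffold whose long forms link receptors and whose short form, made after strong activity, lacks the part that joins Homer proteins together. Counts per gene add these forms. Homer1 lies on the plus strand of chromosome 13 at 93299635 to 93405129. Cells held from 0 to 124.9 CPM in LOC neurons (median 14.6) and from 2.23 to 198.6 CPM in MOC neurons (median 9.55). Every MOC cell had a read, against 13 of 18 LOC cells, yet the LOC median was the higher. After thinning every library to 350000 counts, reads were found in 12 LOC and 12 MOC cells. Sums were 26.7 CPM (24.04 to 29.5) in LOC and 30.9 CPM (28.1 to 34.04) in MOC neurons, and the mean difference was -0.74 while the difference of medians was 0.56. With at least 10 cholinergic reads the sums were 22.9 CPM over LOC cells and 15.3 CPM over MOC cells, the other way round from all libraries, while the mean difference was -0.45. The cells highest in Homer1, LOC 14 and MOC 13, were also the highest in Grm3 of their groups.

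Homer2, a long-form scaffold of the same family, lies on the minus strand of chromosome 7 at 81600481 to 81707527. It ranged from 0 to 182.4 CPM in LOC neurons (median 16.9) and from 0 to 53.6 CPM in MOC neurons (median 5.58). Of the LOC cells, 3 lay above the highest MOC cell, while 6 LOC and 4 MOC cells had no read. The sums were 29.5 CPM (26.8 to 32.5) in LOC and 11.6 CPM (9.85 to 13.5) in MOC neurons, 2.55-fold higher in LOC, but the difference of means was 0.63 and the rule was not met. With at least 10 cholinergic reads the sums were 29.2 CPM in LOC and 12.03 CPM in MOC neurons. The difference was then 1.27 and Homer2 met the rule toward LOC, as did 9.68% of measured genes. Homer2 tracked library richness: its correlation with the number of genes with a read was 0.63 over 31 cells, and MOC libraries held the higher median of such genes (11481 in LOC, 13083 in MOC). The part of library richness in the Homer2 values was not tested.

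Homer3, known as the Homer of cerebellar Purkinje cells, lies on the plus strand of chromosome 8 at 70282827 to 70294361. Its levels ran from 0 to 38.1 CPM in LOC neurons (median 13.4) and from 0 to 52.4 CPM in MOC neurons (median 6.37). Here 2 MOC cells lay above the highest LOC cell, and 4 cells of each group had no read. The highest cells were MOC neurons although the LOC median was above the MOC median. Sums were 12.9 CPM (11.1 to 14.9) in LOC and 17.3 CPM (15.2 to 19.7) in MOC neurons, lower in LOC, whereas the mean difference was 0.47, higher in LOC. With at least 10 cholinergic reads the sums were 12.9 CPM over LOC cells and 18.99 CPM over MOC cells and the mean difference was 0.29. An exon stretch of 874 bases, 25.4% of its exon length, overlaps Ddx49 on the other strand, and the library kit does not mark strand, so reads there cannot be told apart. The correlation of Homer3 with summed astrocyte markers was 0.47 over 31 cells, 0.28 over LOC cells and 0.73 over the 13 MOC cells. Its correlation with the number of genes with a read was close to that, at 0.46 over 31 cells. For inhibitory markers it was 0.55 over LOC cells and 0.28 over MOC cells. For oligodendrocyte markers it was 0.04 over LOC cells and 0.64 over MOC cells. Astrocyte markers had medians of 3512 CPM in LOC and 3898 CPM in MOC neurons, and their part in the Homer3 level was not tested.

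**Figure D3:**
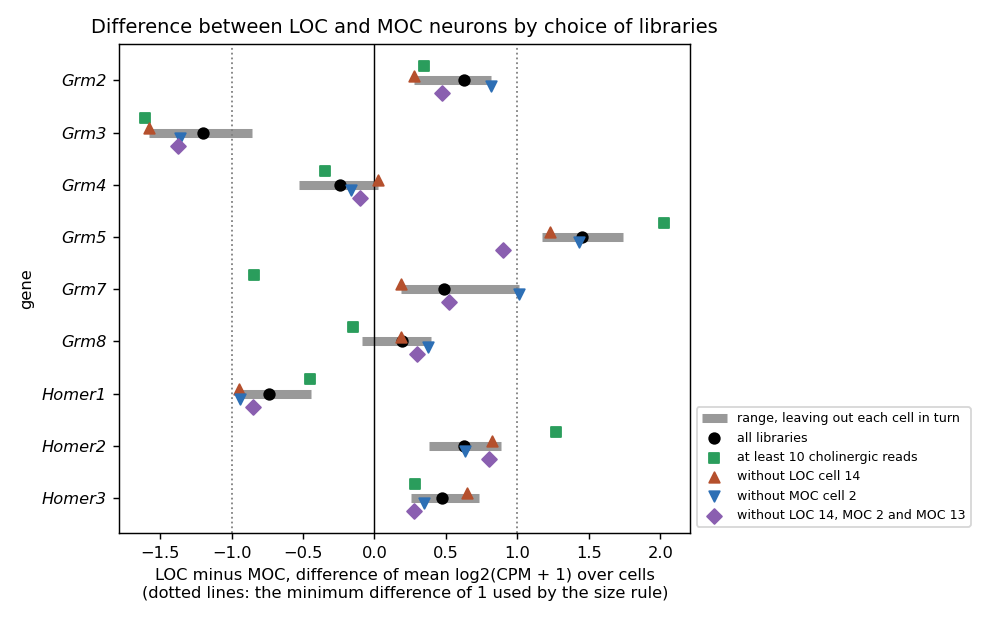
Black points give the LOC minus MOC difference of mean log2(CPM + 1) for each gene over all libraries, grey bars the range when each cell is left out in turn, and the other symbols named sets of libraries. Grm5 stayed between 1.17 and 1.74 when single cells were left out and was 0.90 without LOC 14, MOC 2 and MOC 13, while Grm7 was on either side of 0 depending on the libraries.

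Levels of different genes can be compared only per length. The length used was the union of exons over all annotated transcripts of a gene, and which transcripts a cell used was not tested. It was 3440 bases for Homer3, 11976 for Homer1 and 12621 for Homer2, and 3049 for Grm3 beside 10247 for Grm5. Per kilobase of exon, the summed level in LOC neurons was 10.1 CPM for Grm3, 9.75 for Grm5, 9.27 for Grm7 and 7.80 for Grm4. In MOC neurons it was 13.04 CPM per kilobase for Grm3, 8.15 for Grm4, 7.80 for Grm7 and 1.91 for Grm5. These orders rest on single libraries and on the exon lengths used. Without division by length, the LOC sums were 99.9 CPM for Grm5, 54.6 for Grm7, 46.6 for Grm4 and 30.9 for Grm3. The coding parts differ less in length than the exon unions, at 2637 bases for Grm3, 2736 for Grm4 and 3513 for Grm5. Without LOC 14 the LOC levels were 3.12 CPM per kilobase for Grm3, 8.29 for Grm5, 7.17 for Grm7 and 8.21 for Grm4, and without MOC 2 the MOC level of Grm7 was 2.45. Grm5 made up 23.5% of the summed receptor level per kilobase in LOC neurons (28.8% without LOC 14) and 6.02% in MOC neurons (7.32% without MOC 2). Grm2 stood at 3.80 CPM per kilobase in LOC and 0.67 in MOC neurons, and Grm8 at 0.66 in LOC and 0.20 in MOC neurons. Among the scaffolds Homer3 was highest by this measure, at 3.75 CPM per kilobase in LOC and 5.03 in MOC neurons. Without division by length it was lowest in LOC neurons, at 12.9 CPM against 26.7 for Homer1 and 29.5 for Homer2. In MOC neurons it then had 17.3 CPM, against 30.9 for Homer1 and 11.6 for Homer2. The first place of Homer3 thus rested on its short exon union. The coding parts of Homer1, Homer2 and Homer3 are close in length, at 1062, 1062 and 1068 bases. When the 9 genes were ordered by mean log2(CPM per kilobase + 1), Grm4 came first and Grm8 last in both kinds of neuron. No neighbouring pair in either order differed by more than the larger SD over cells. Without division by length, Grm5 had a higher LOC mean of log2(CPM + 1) than Grm4, at 4.84 against 4.51.

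**Figure D4:**
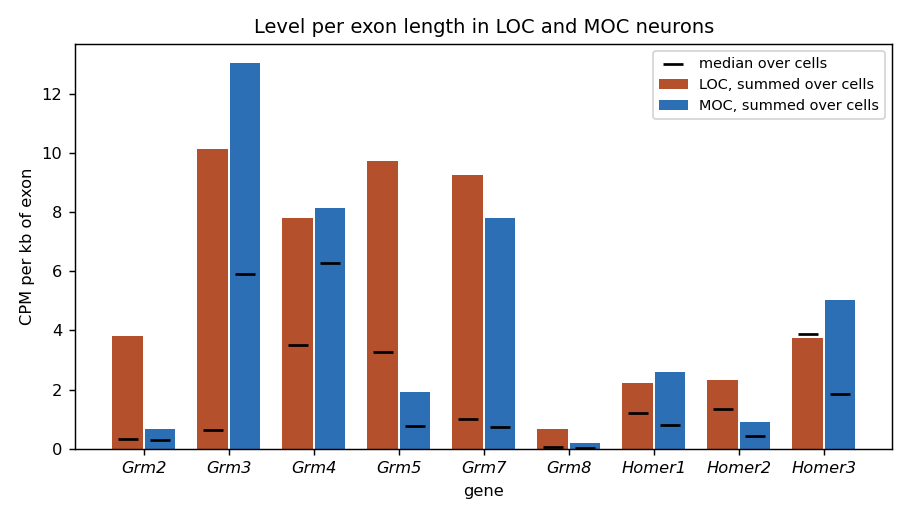
Bars give the summed CPM per kilobase of exon of each gene, LOC left of MOC, and black ticks the median over cells. Grm3 had the tallest bars (10.1 in LOC, 13.04 in MOC), with a LOC median of 0.64 and a LOC level of 3.12 without LOC 14, and Grm5 showed 9.75 in LOC beside 1.91 in MOC.

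Which receptor was highest per kilobase differed from cell to cell, and this too depends on the exon lengths used. Per kilobase, Grm4 was the highest receptor in 7 of 18 LOC cells, Grm5 in 5, Grm2 and Grm3 in 2 each, and Grm7 and Grm8 in 1 each. In MOC neurons Grm4 was highest in 5 of 13 cells, Grm3 in 4, Grm7 in 3 and Grm5 in 1. Homer3, the scaffold with the shortest exon union, was the highest scaffold per kilobase in 9 LOC and 7 MOC cells. A typical neuron held several members: 3 to 9 of the 9 genes had a read in LOC cells (median 6.5) and 4 to 9 in MOC cells (median 7). Every neuron had reads of at least 3 receptors, and LOC 17 was the only neuron with no Homer read.

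Since most cells held both, their overlap says little about a link between Grm5 and its scaffolds. Of LOC cells 15 of 18 had at least 5 reads of Grm5 and 16 had them of some Homer gene, and of MOC cells 9 and 13 of 13 did. At least 5 reads of Grm5 and of some Homer gene were found together in 13 of 18 LOC cells and 9 of 13 MOC cells. Grm5 without a Homer gene at that level occurred in LOC 15 and LOC 17, and a Homer gene without Grm5 in 3 LOC and 4 MOC cells. Their levels showed little relation over all 31 cells: the Spearman correlation of Grm5 was 0.01 with Homer1, 0.04 with Homer2 and -0.11 with Homer3. Over LOC cells these correlations were 0.23, 0.02 and -0.12, and over MOC cells -0.29, -0.23 and -0.28. For all 36 pairs of the 9 genes the correlation over 31 cells ranged from -0.14 to 0.59 with a median of 0.04. The pairs at 0.4 or more were Grm4 with Homer3 (0.59), Grm3 with Homer1 (0.47), Homer2 with Homer3 (0.45) and Grm4 with Homer2 (0.43). These values are descriptions, over cells that differ in depth and in the number of genes read.

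The genes whose pattern was most like that of Grm5, the gene of the 9 with the most CPM over all cells, were sought among 10973 genes read in at least 50% of cells. They were Oscp1 (Spearman correlation 0.69), Tpm3, a tropomyosin (0.67), and Zfp941, a zinc-finger gene (0.67), each over 31 cells. The highest of so many correlations over so few cells can be large without any link, and none was tested. Within the groups, Oscp1 had 0.74 over LOC cells and 0.23 over MOC cells. Zfp941 had 0.61 over LOC cells and 0.38 over MOC cells. Oscp1 summed to 42.9 CPM in LOC and 5.72 CPM in MOC neurons, and Zfp941 to 89.8 CPM in LOC and 3.45 CPM in MOC neurons. Tpm3 summed to 107.4 CPM over LOC cells and 109.6 CPM over MOC cells, so its likeness to Grm5 lay within the groups, at 0.87 over LOC cells and 0.41 over MOC cells.

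Downstream of group I receptors lies the Gq arm, with 20 measured genes. Of these, 1 met the size rule toward LOC and 1 toward MOC, beside 6.07% and 5.67% of all measured genes. The median difference was 0.19. Gnaq, the Gq alpha subunit, summed to 98.3 CPM in LOC and 49.1 CPM in MOC neurons, just at the 2-fold limit, with a read in 18 of 18 LOC and 12 of 13 MOC cells. It left the rule in 24 of 43 alternatives, 15 of them with a single library left out, and its difference was 1.49 to 2.10 over all single libraries left out. Among libraries with at least 10 cholinergic reads it was 102.9 CPM over LOC cells and 58.8 CPM over MOC cells, short of the rule. Plcb3, a phospholipase C beta, was lower in LOC neurons, with 7.93 CPM over LOC cells and 32.6 CPM over MOC cells, and left the rule with a pseudocount of 10 (-0.88).

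The Gi/o arm used by group II and III receptors had 23 measured genes, with a median difference of 0.17. Of them, 2 met the rule toward LOC and 1 toward MOC, beside 6.07% and 5.67% of all measured genes. Gnaz, a Gi-family alpha subunit, summed to 91.0 CPM in LOC and 36.6 CPM in MOC neurons. MOC 3 held 54.9% of its MOC counts, with 18.3 CPM over the other MOC cells, and Gnaz left the rule without the 3 libraries highest in microglia markers, although its difference was still 1.61. Gng7, a G protein gamma subunit, reached 36.8 CPM over LOC cells and 8.43 CPM over MOC cells, with 76.5% of the MOC counts in MOC 9. It left the rule in 18 of 43 alternatives, 12 of them with a single library left out (lowest difference 0.76, without LOC 13). With at least 10 cholinergic reads its difference was wider, at 2.17 (42.9 CPM over LOC cells, 0.88 CPM over MOC cells). Adcy9, an adenylyl cyclase, summed to 4.28 CPM over LOC cells and 20.5 CPM over MOC cells, where MOC 13 held 63.2% of the counts. Its difference of -1.10 was -0.66 without MOC 13, -0.96 without MOC 4, -0.99 without MOC 7 and -0.93 without MOC 12, and missed the rule in each case. It was -0.30 with at least 10 cholinergic reads (4.84 CPM over LOC cells, 7.62 CPM over MOC cells), and over all 43 alternatives Adcy9 left the rule in 9. Of 16 measured RGS genes, which speed the turning off of G proteins, 0 met the rule toward LOC and 1 toward MOC, Rgs3, with 7.01 CPM over LOC cells and 26.0 CPM over MOC cells. Its difference was -0.99 without MOC 2, -0.77 with at least 10 cholinergic reads and -0.70 with a pseudocount of 10, each short of the rule.

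Among 19 measured Homer partners, 1 met the rule toward LOC and 1 toward MOC, beside 6.07% and 5.67% of all measured genes. The median difference was 0.25. Dnm3, the dynamin that ties Homer to the endocytic zone beside the synapse, was read in all 18 LOC and all 13 MOC cells. It summed to 272.6 CPM in LOC and 71.0 CPM in MOC neurons, with means of log2(CPM + 1) of 7.38 ± 1.53 in LOC and 5.64 ± 1.22 in MOC neurons. That difference of 1.74 met the rule in every one of the 43 alternatives. These alternatives reuse the same cells, and how often other genes stayed past the rule in all of them was not worked out. Agap2, whose long form PIKE-L binds Homer, summed to 10.7 CPM over LOC cells and 31.9 CPM over MOC cells, and its difference fell short of the rule without MOC 2 (-0.98), without MOC 13 (-0.99) and with at least 10 cholinergic reads (-0.87), and it left the rule in 6 of 43 alternatives.

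Of 16 measured partners in receptor trafficking and trans-synaptic contact, 1 met the rule toward LOC and 0 toward MOC. It was Grk3, a kinase that turns off G protein-coupled receptors, with 47.7 CPM in LOC and 7.99 CPM in MOC neurons. Like Dnm3, it met the rule in all 43 alternatives, which reuse the same cells. Of 5 genes of glutamate uptake and exchange, 1 met it toward MOC: Slc7a11, the cystine and glutamate exchanger, with 6.66 CPM in LOC and 33.4 CPM in MOC neurons. MOC 8, highest in microglia markers at 11107 CPM, held 53.5% of those MOC counts, and the MOC sum was 17.4 CPM without it. Slc7a11 left the rule without the 3 libraries highest in microglia markers (-0.83), with a pseudocount of 10 (-0.77), and with at least 10 cholinergic reads, where it summed to 7.21 CPM over LOC cells and 11.5 CPM over MOC cells. The part of microglial RNA in Slc7a11 was not tested. For the ionotropic receptors, 1 of 18 genes met the rule, Gria1, an AMPA receptor subunit, with 249.5 CPM over LOC cells and 93.6 CPM over MOC cells, and the median difference was 0.00. Gria1 also met the rule in all 43 alternatives. The 7 lists share genes (Itpr1 and Trpc1 stand in the Gq arm and among Homer partners), and each held 1 to 3 genes past the rule, where 11.7% of all measured genes met it in either direction.

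**Figure D5:**
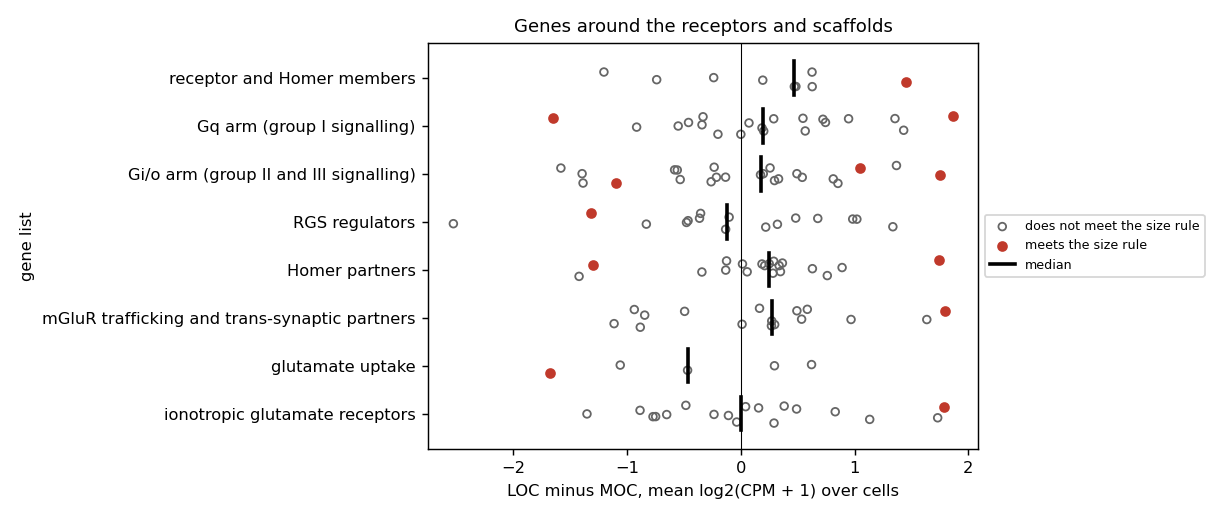
Each point is a measured gene of the list named at left, placed by its LOC minus MOC difference of mean log2(CPM + 1), with filled points for genes that met the size rule and a bar for the list's median. The medians ran from -0.47 for glutamate uptake to 0.47 for the 9 receptor and Homer genes, and each pathway list had 1 to 3 filled points.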

How the data were processed

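Single-cell libraries of 18 LOC and 13 MOC neurons were made with Smart-seq2 and Nextera kits, which do not mark strand, and sequenced in 75-base pairs. Whole-number read counts per gene were deposited by the authors. A second table held normalized signal that the authors deposited, in which each library's values are its counts times a constant, with library sums from 721736 to 1737008. Both were read through the sample names in their headers. The submitters' processing notes list the builds mm10 and GRCm38 and the tools STAR 2.5.2, bcl2fastq, edgeR, limma and DESeq2. The counting tool was not given in the sources used here.

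CPM was computed on the total over mouse genes, with a pseudocount of 1 for log2 values. The labels name no animal, so groups were compared by size with no test, using the size rule given with the results and a floor of 3 counts over a group. The 95% intervals are exact Poisson and cover counting error only. The members and lists were chosen with earlier results of these data known, and the lists cover Gq and Gi/o signalling, RGS genes, Homer and receptor partners, glutamate uptake and ionotropic receptors. Named list genes are those that met the size rule, at most 4 a list by widest difference. Genes like Grm5 were the 3 with the highest Spearman correlation of CPM, sought for the member of widest difference and for the most abundant member, both Grm5. Kcnj5, Rgs16 and Grasp had no row under these names and Trpc6 was not measured. Positions and coding sequences are from GENCODE M21 (GRCm38), with 55154 of 55421 identifiers matched. Alternatives were TMM sizes (edgeR 4.0.16), DESeq2 1.42.0 size factors, the authors' values, thinning to 350000 counts, a pseudocount of 10, medians, summed counts, marker-based exclusions and leaving out each cell. R 4.3.3 and Python 3.11.15 were used. No pair of libraries was identical.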

Additional observations from a re-analysis of the deposited data

How the results depend on the processing

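No paired analysis was possible because the results come from no test and a cell's number names no shared animal. Over all alternatives Grm5 kept its direction, with differences of 0.90 to 2.29 (1.17 to 1.74 with a single cell left out). The number of the 9 genes that met the size rule toward LOC, 1 with all libraries, was 4 by summed counts (Grm2, Grm5, Grm8 and Homer2, where 16.6% of measured genes met it), 2 by medians over cells (Grm5 and Homer2, 6.13%), 2 with at least 10 cholinergic reads (Grm5 and Homer2, 9.68%), 2 without LOC 2, LOC 17 and MOC 6, the libraries highest in oligodendrocyte markers (Grm5 and Homer2, 8.72%), and 0 without LOC 14, MOC 2 and MOC 13. That last choice was made after seeing the data. Toward MOC the count, 0 with all libraries, was 1 (Grm3, 7.74%) with at least 10 cholinergic reads and 1 (Grm3) without LOC 14, MOC 2 and MOC 13, where 6.33% of measured genes met it. With single cells left out the count toward LOC was 1 to 2, with Grm7 added without MOC 2, and the count toward MOC was 0 to 1, with Grm3 added without LOC 14. The median difference of the 9 genes, 0.47, was -0.15 to 0.65 under other choices, the lowest with at least 10 cholinergic reads, and 0.19 to 0.65 with single cells left out. Grm4, Grm7, Grm8, Homer1 and Homer3 took the other sign under at least 1 alternative. Among all measured genes 1078 met the rule toward LOC and 1007 toward MOC (51.7% toward LOC), against 723 and 1115 with DESeq2 size factors (39.3% toward LOC). The share of genes meeting it was 11.7%, and 5.55% over all genes with any read, since genes read in few cells cannot meet it. The causes of these differences were not tested otherwise. The values of Grm2, Grm3, Grm7 and Grm8 are often near the floor. Their median in LOC or MOC neurons lay within or under the range of levels that 3 counts give in a library. The part of depth in these values was not tested.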
